A study of Mus musculus with 22 samples.

Results

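The regions described here are the broad H3K27ac domains of wild-type (WT) regulatory T cells (Treg cells, the Foxp3-expressing T cells that restrain immune responses). Peaks of the 2 WT H3K27ac lists were merged where they shared at least 1 bp, regions with a peak in both lists were kept, and those at least 10 kb wide were called broad domains. This gave 460 domains among 27503 regions, or 1.67% of the regions and 10.8% of their summed width (7.11 of 65.8 Mb). The domains were thus chosen by their measured WT width, so this width and the WT coverage are a description and are not tested.

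The study mapped protein binding by chromatin immunoprecipitation sequencing (ChIP-seq) in mouse Treg cells of spleen and lymph nodes. All groups were primary Treg cells that had been exposed to a commercial stimulation cocktail for 1 h, so no resting cells were included. One genotype is WT and the other is labelled IkE5-deletion (IkE5 from here on). The labels do not expand that name, the series title names Ikzf1, the gene of the transcription factor Ikaros, and how much Ikaros protein is left in IkE5 cells is not known from the lists. The labels do not say from how many mice each library came, at what age, or whether the deletion was limited to Treg cells. Each genotype has 2 libraries for H3K27ac, the Treg factor Foxp3, the acetyltransferase p300 and the calcium-activated factor NFAT1. Ikaros was mapped in 2 WT libraries.

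H3K27ac, acetylation of lysine 27 on histone H3, marks active promoters and enhancers and is written mainly by p300 and its relative CBP. Most acetylated regions are short and flank a single nucleosome-free site, whereas broad domains join many such elements and tend to lie at genes that define a cell type. In Treg cells they are known at Foxp3 and Ctla4, and Foxp3 and NFAT1 bind many of the same enhancers after stimulation. Ikaros is a zinc finger factor that recruits both repressing and activating chromatin complexes in lymphocytes.

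The sequences before the start sites of 5 domain genes show start windows within a domain with and without regions of all 4 mapped proteins. The 250 bases before 364 annotated start sites lay wholly within a domain. Of these starts, 13 had a region of all 4 targets touching the 250 bases (Foxp3, Ikaros, p300 and NFAT1, each in both WT lists). Zap70, Tnfaip3, Tigit and Ptpn22 are shown as such starts, chosen after the peaks were seen, and Lef1 as the start of a gene whose domain was shorter in IkE5. Each run is the 250 bases before the start on the gene's own strand, 5′ to 3′, from RefSeq (GRCm38.p6, the assembly that mm10 names). Capitals mark matches on either strand to TGGGAA (Ikaros core), GGAAA (NFAT core), TGTTTAC (forkhead) or TGTGGT (Runx), where a TGGGAA followed by A also holds a GGAAA. A match in the other strand appears as its reverse complement.
Zap70 (chr1:36761548-36761797, plus strand): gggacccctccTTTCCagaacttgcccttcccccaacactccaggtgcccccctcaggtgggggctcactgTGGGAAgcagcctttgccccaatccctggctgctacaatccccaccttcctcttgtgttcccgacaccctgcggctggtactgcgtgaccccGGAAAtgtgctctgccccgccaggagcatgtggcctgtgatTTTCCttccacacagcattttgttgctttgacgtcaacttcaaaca
Tnfaip3 (chr10:19015411-19015660, minus strand): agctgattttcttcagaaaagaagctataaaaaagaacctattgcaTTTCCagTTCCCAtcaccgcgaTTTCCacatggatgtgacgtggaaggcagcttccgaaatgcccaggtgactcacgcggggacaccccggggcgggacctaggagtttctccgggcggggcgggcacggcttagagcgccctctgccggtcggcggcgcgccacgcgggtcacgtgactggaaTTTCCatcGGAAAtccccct
Tigit (chr16:43664185-43664434, minus strand): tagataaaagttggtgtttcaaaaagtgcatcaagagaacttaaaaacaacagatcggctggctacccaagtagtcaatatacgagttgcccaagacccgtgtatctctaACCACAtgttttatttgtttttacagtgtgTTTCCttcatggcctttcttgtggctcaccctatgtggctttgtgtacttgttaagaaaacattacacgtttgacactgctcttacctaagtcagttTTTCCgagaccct
Ptpn22 (chr3:103860027-103860276, plus strand): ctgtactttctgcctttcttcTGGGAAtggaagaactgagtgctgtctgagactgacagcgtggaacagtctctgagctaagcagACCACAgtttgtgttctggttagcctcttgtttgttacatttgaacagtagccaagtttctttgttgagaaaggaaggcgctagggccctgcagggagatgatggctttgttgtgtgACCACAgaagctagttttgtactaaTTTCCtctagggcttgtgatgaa
Lef1 (chr3:131112541-131112790, plus strand): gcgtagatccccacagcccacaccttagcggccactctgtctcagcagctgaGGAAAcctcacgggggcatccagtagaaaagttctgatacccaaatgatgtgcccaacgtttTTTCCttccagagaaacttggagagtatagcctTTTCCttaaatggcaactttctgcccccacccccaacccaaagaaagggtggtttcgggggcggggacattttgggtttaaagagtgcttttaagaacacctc

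Zap70, the kinase that carries the T cell receptor signal, had 1 Ikaros core and 3 NFAT cores in its window. Tnfaip3, a brake on NF-kappaB, had 1 Ikaros core and 4 NFAT cores. Ptpn22, a phosphatase that dampens T cell receptor signalling, had 1 Ikaros core, 1 NFAT core and 2 Runx matches. The window of Tigit, an inhibitory receptor, held 2 NFAT cores and 1 Runx match but no Ikaros core, although an Ikaros region touched it. The Lef1 window held 3 NFAT cores and was partly covered by an Ikaros region, and no Foxp3, p300 or NFAT1 region of both WT lists touched it. A WT Foxp3 and a WT NFAT1 region ended just before its first base, at chr3:131112459 and chr3:131112519. No forkhead match was present in these 5 windows. Over all 32817 start windows of the RefSeq table, 21.6% held the Ikaros core, 55.6% the NFAT core, 3.16% the forkhead letters and 14.0% the Runx letters, against 20.3%, 58.5%, 3.02% and 16.2% of the windows in domains. A match is a description of letters and no evidence of binding. In IkE5 cells the Zap70, Tnfaip3 and Ptpn22 windows had a peak of Foxp3, p300 and NFAT1 in both libraries of each target. The Tigit window had Foxp3 and p300 in both IkE5 libraries and NFAT1 in library 2 only. The Lef1 window had a Foxp3 and a p300 peak in IkE5 library 2 and an NFAT1 peak in IkE5 library 1. These are peaks of single lists, whereas WT was scored by regions of both lists, so no gain is read from them.

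The 4 H3K27ac lists differed in size, and this bears on every value below. The WT lists covered 79.6 and 54.6 Mb and the IkE5 lists 72.9 and 62.1 Mb, so the second WT library (WT library 2) was the smallest. Read depth is unknown, because a list holds positions and no reads, and a shorter covered length can come from fewer reads as well as from less acetylation. Identical intervals made up at most 0.745% of any pair of lists. Nothing in the labels ties a library to separate mice, so the spread between the 2 libraries of a group may be technical. Of 12 B cell, 12 myeloid and 12 CD8 T and NK cell marker genes, 0 of each list had a broad domain, and 7, 4 and 4 of them touched an H3K27ac region of any width in both WT lists.

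The widest domains overlapped genes of several kinds, from Dad1 to T cell transcription factors and receptors. The median width was 13.3 kb and the largest 81.6 kb, against a median of 1.76 kb for the 27043 narrower regions, and 69 domains were at least 20 kb wide. The widest (chr14:54158626-54240220) is named by Dad1, an oligosaccharyltransferase subunit gene next to the T cell receptor alpha locus, whose body it overlapped. Names came from protein-coding gene bodies only, so gene segments of the receptor locus could not name it. How much of the interval lies in that locus was not examined. Next came Ets1, a T cell transcription factor (61.8 kb, chr9:32692182-32754025), and Ikzf2, which encodes the Ikaros relative Helios (57.3 kb, chr1:69636168-69693457). Ptprc (CD45, 54.1 kb), the inhibitory receptor gene Ctla4 (45.5 kb, chr1:60873206-60918664), the scavenger receptor gene Cd5 (43.2 kb) and the growth factor signalling inhibitor Lrig1 (43.0 kb) followed. The other 8 of the 15 widest overlapped Rhoh, Prkch, Nr4a1, a Gimap cluster, Prkcq, Sla with Tg, and Tnfrsf18 with Tnfrsf4, or lay nearest to Clec2d. Tnfrsf18 (GITR) and Tnfrsf4 (OX40) are costimulatory receptors high on Treg cells. At the threshold, the narrowest domains lay near Anxa3 (10007 bp), at Per1 and Vamp2 (10017 bp) and near Vps54 (10034 bp). The widest regions left out lay at Neurl3 (9999 bp), at Rhof and Setd1b (9999 bp) and at Foxp1 (9988 bp).

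Domains overlapped gene bodies at 405 of 460 positions, touching 398 protein-coding genes, or 1.82% of 21900. Overlap with a gene does not show that the domain acts on that gene. The remaining 55 domains lay a median of 20.8 kb from the nearest gene body, and the farthest, 435 kb from Myc, lay at chr15:61538405-61550100. A start site of a gene lay within 202 domains (43.9%), against 28.0% of the narrower regions. Several genes held more than 1 domain, 53 in all. Inpp4b, a lipid phosphatase gene, held 7, Prkch and Foxp1 held 5 each, and the 5 of Prkch, which encodes protein kinase C eta, summed to 100.5 kb. Bach2, a repressor that keeps T cells from effector differentiation, Bcl11b, a T cell commitment factor, and Tox, a chromatin regulator of persistent stimulation, held 3 each.

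T cell and Treg gene lists were well represented. Of 30 Treg signature genes 17 had a domain in the gene body, as did 16 of 20 T cell receptor and coreceptor genes (Ptprc, Cd5 and Prkcq the widest), 15 of 20 naive and quiescence genes and 14 of 20 T cell transcription factors. Among activation-induced genes 16 of 33 had one, including Nr4a1, Irf4 and Junb. In the Ikaros family, Ikzf1, Ikzf2, Ikzf3 and Ikzf4 had domains, 7 in total, and the other 16 genes of that list, mainly corepressor subunits, had none in the gene body. Only 4 of 20 effector cytokine genes had one, namely Tnf, Lta and Ltb, which share a domain, and Tnfsf8. Pdcd1, Cd274, Tigit, Ctla4 and Tox did among 14 co-inhibitory receptor and related genes. Of 16 housekeeping genes only Actb had a domain, although all 16 touched an H3K27ac region. Each of these shares stands beside the 1.82% of all protein-coding genes. The lists favour genes known in T cells, and no test of the shares was made.

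The WT libraries covered the domains unequally. WT library 1 covered 99.1% of the summed width and WT library 2 covered 85.3%. The IkE5 libraries lay between or close to them, at 90.1% in library 1 and 86.2% in library 2. A single uninterrupted stretch of at least 10 kb was present in 402 and 190 of the 460 domains for the WT libraries and in 234 and 170 for IkE5. All 4 libraries had at least 1 peak in every domain. Summed over the domains, IkE5 covered length was 95.6% of WT, with 97.7% and 93.5% for the single IkE5 libraries and 107.5% and 92.5% for the single WT libraries against the WT mean. The genotypes therefore overlapped. Narrower WT regions kept 83.3% of their covered length in IkE5 (83.8% and 82.9%), and 3039 of them (11.2%) had no IkE5 peak. Retention increased with the WT width class, from 48.7% in regions of 0.5 to 1 kb to 97.4% in domains of 20 kb and over. A short region can lose its peak whole while a long one loses a part, and this property of the measure was not separated from biology.

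Across single domains the IkE5 covered length had a median of 97.0% of WT. The central 50% of domains lay between 88.9% and 102%, 284 domains (61.7%) lay between 90% and 110%, 6 lay under 50% and 51 above 110%. Both IkE5 libraries were below both WT libraries in 159 domains (34.6%), where 40.0% of all 27503 regions showed the same. Both were above in 7 (1.52%, against 4.17% of all regions), at Cd5, Tnip1, Tiam1, Spn, Ppp1ca with Tbc1d10c, Zfp217 and Asxl1. Since all regions needed a peak in both WT lists, a lower IkE5 value is partly fixed by the choice, and nothing is read from these counts. Scaling each library to its total covered length left 62 domains below (13.5%, background 33.4%) and 37 above (8.04%, background 6.39%). In the reverse direction, 455 IkE5 domains were found by the same rule, with a median width of 13.3 kb. WT and IkE5 domains overlapped at 292, which is 63.5% of the WT and 64.2% of the IkE5 domains, and WT libraries covered 88.4% of the IkE5 length in the IkE5 domains.

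**Figure D1:**
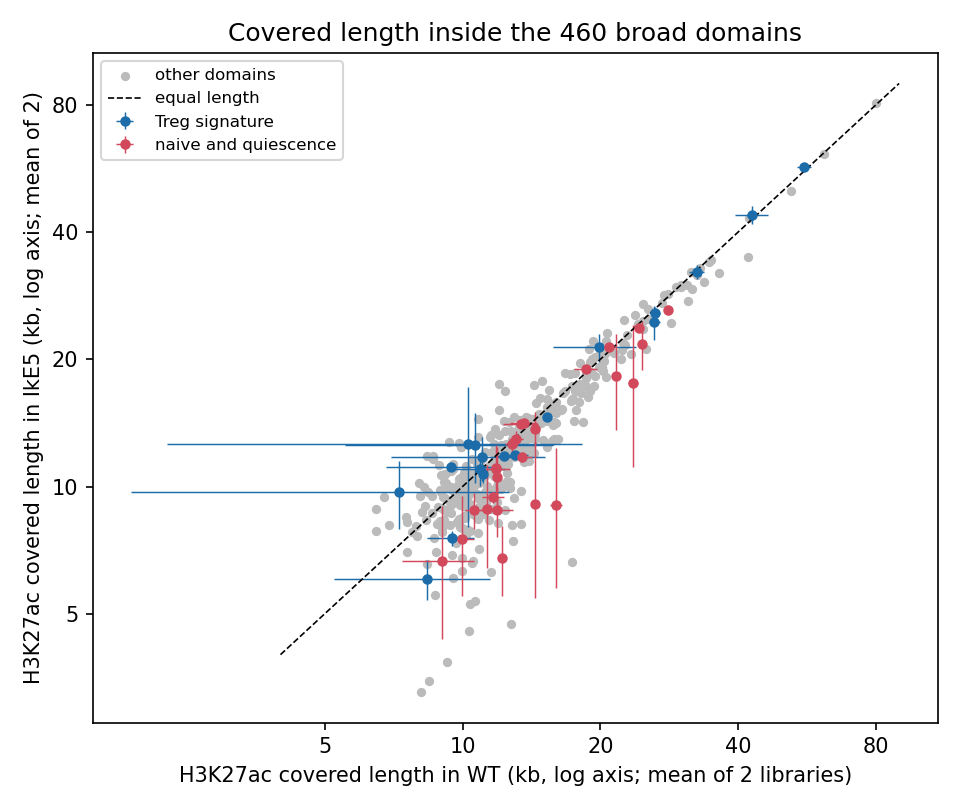
H3K27ac covered length of each of the 460 domains in WT (horizontal, kb, log axis) and IkE5 (vertical, kb, log axis), as means of 2 libraries, with SD bars for domains of the Treg signature (blue) and the naive and quiescence genes (red). Most domains follow the line of equal length, Treg signature domains have a median of 99.7% of WT, and naive and quiescence domains (25 domains of 15 genes) have a median of 88.3%. Against WT library 1 alone these medians are 92.2% and 87.4%, and against WT library 2 alone 103.3% and 89.3%.

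Domains of Treg-defining genes mostly had overlapping covered lengths in the 2 genotypes. The Ikzf2 domain was covered over 57.3 and 54.5 kb in WT and over 57.3 and 57.0 kb in IkE5. The Ctla4 domain was covered over 45.4 and 40.5 kb in WT and 45.5 and 42.5 kb in IkE5. In both, the second WT library was the lowest of the 4 and the genotypes overlapped. The domain at Foxp3 itself (chrX:7562878-7589683) was covered over 26.8 and 25.7 kb in WT (26.3 ± 0.737, SD, n = 2) and over 22.9 and 26.1 kb in IkE5 (24.5 ± 2.26, SD, n = 2). IkE5 library 1 was the low one there, and IkE5 library 2 lay between the WT libraries. At Il2ra, the alpha chain gene of the interleukin 2 receptor, IkE5 reached 97.7% of WT. Over the 18 domains of the Treg list the median was 99.7%, against 97.0% over all 460. Both IkE5 libraries were below both WT libraries in 4 of 18 and above in 0. Over all domains the share below was 34.6%, and over all regions 40.0%. WT library 2 covered 82.6% of the width of the 18 Treg domains, against 99.9% in WT library 1. Against WT library 1 alone the medians were 92.2% for the Treg list and 91.7% over all domains. Against WT library 2 alone they were 103.3% and 100.2%. The 2 domains of Ikzf1, 30.1 and 28.9 kb wide, had 101.1% and 103.2% of the WT length. IkE5 library 1 covered 30.1 and 28.8 kb of them and library 2 29.2 and 28.0 kb.

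The 25 domains of genes that keep T cells resting had a median IkE5 covered length of 88.3% of WT, against 97.0% over all 460, and 0 of the 25 passed the limma test given below. They belonged to only 15 genes, so the median is not one of 25 independent genes. Foxp1 gave 5 of them (56.5% to 82.7%), Bach2 3 (63.1% to 84.4%) and Bcl11b 3 (102% to 104%), and the Lef1 domains stood at 55.8% and 75.1%. Genes of this list with a single domain ran from 80.9% at Foxo1 to 104.5% at Il7r. Both IkE5 libraries were below both WT libraries in 14 of 25, where 34.6% of all domains and 40.0% of all regions showed the same. The covered share of these domains was 98.0% and 95.6% in WT and 78.8% and 89.3% in IkE5, so IkE5 library 1 was the lower. After scaling to the library total the median was 86.2%, against 94.6% over all domains, and 4 of 25 had both IkE5 libraries below, a share near the 13.5% of all domains and under the 33.4% of all regions. Without scaling, IkE5 library 1 alone gave a median of 85.5% and library 2 alone 94.1%, against 99.4% and 95.5% over all domains. The gap to all domains thus came mostly from IkE5 library 1. Against WT library 1 alone the median was 87.4% and against WT library 2 alone 89.3%, beside 91.7% and 100.2% over all domains. The list of T cell transcription factors, which shares Lef1, Tcf7, Foxp1, Bach2, Satb1, Foxo1 and Bcl11b with it, had a median of 86.2% over 27 domains. Of these 15 had both IkE5 libraries below, or 5 after scaling, beside the same 34.6% and 13.5% of all domains, and most of the low ones are the Foxp1, Bach2 and Lef1 domains already counted.

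At Lef1, a factor of naive and memory T cells, the domain around the start site (chr3:131109055-131122087) was covered over 12.1 and 12.3 kb in WT and 5.88 and 7.69 kb in IkE5. The WT values were close to each other (12.2 ± 0.149, SD, n = 2) and the IkE5 values (6.78 ± 1.28, SD, n = 2) lay below both. The second Lef1 domain stood at 75.1%. At Bach2 the domain of 14.8 kb (chr4:32284146-32298989) was covered over 14.6 and 14.3 kb in WT and 6.52 and 11.7 kb in IkE5. The widest Bach2 domain (24.1 kb) had 23.1 and 24.0 kb in WT and 13.0 and 22.2 kb in IkE5, so its difference came mostly from IkE5 library 1. The 5 domains of Foxp1, a factor of T cell quiescence, ranged from 56.5% to 82.7%. The lowest of them (chr6:99392027-99408593) had 16.3 and 15.7 kb in WT and 6.72 and 11.4 kb in IkE5. Tcf7, the partner of Lef1, had 24.9 and 24.4 kb in WT and 19.7 and 23.9 kb in IkE5. Domains of Bcl11b did not show this, at 102% to 104%.

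The 16 domains of activation-induced genes had a median of 99.3%, and in 2 both IkE5 libraries were below both WT libraries. Over all domains the share below was 34.6% and that above 1.52%, and over all regions 40.0% and 4.17%. The counts of this paragraph stand beside these shares, and nothing is read from them. Nr4a1, an early target of T cell receptor signalling, had the lowest ratio of the 16 domains. It had 34.0 and 28.3 kb in WT and 29.4 and 25.6 kb in IkE5, and the genotypes overlapped. The 20 T cell receptor and coreceptor domains had a median of 97.4% with 7 below and 1 above, which was Cd5. The 7 Ikaros family domains had a median of 103.2% with 1 below (Ikzf4). The shared Lta, Ltb and Tnf domain had 15.03 and 12.3 kb in WT and 14.6 and 13.3 kb in IkE5, again overlapping. The Tnfsf8 domain had 13.7 and 9.29 kb in WT and 13.7 and 12.6 kb in IkE5, with WT library 2 the lowest, and these 2 effector cytokine domains had a median of 108%.

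The 10 domains with the lowest ratio had both IkE5 libraries below both WT libraries in every case. They were ranked by these same covered lengths, so the separation is partly fixed by the ranking and is no support for a difference. The lowest, at 37.2%, overlapped Gm10130 and 3300002I08Rik (chr2:150302892-150316458). It was covered over 13.0 and 12.5 kb in WT (12.7 ± 0.312, SD, n = 2) and 4.93 and 4.54 kb in IkE5 (4.73 ± 0.274, SD, n = 2). The domain at Ubash3b, a phosphatase that limits T cell receptor signalling, lay at chr9:41102131-41120378. It had 18.2 and 16.4 kb in WT (17.3 ± 1.32, SD, n = 2) and 8.03 and 5.25 kb in IkE5 (6.64 ± 1.96, SD, n = 2). In both domains the genotypes did not overlap, and at Ubash3b the IkE5 libraries differed from each other, with ratios to WT of 46.4% for library 1 and 30.3% for library 2. At Tox (chr4:6956766-6967898) the values were 11.1 and 5.07 kb in WT and 3.73 and 2.79 kb in IkE5, where the WT libraries differed from each other by more than the lower one differed from IkE5. The other 7 were A1cf (40.9%), near Ppp2r5c (41.6%), near Mkln1 (44.2%), Galnt10 (50.3%), Col15a1 (50.8%), Crlf3 (54.5%) and Lef1 (55.8%).

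The 10 domains with the highest ratio shared a low second WT library. A low WT library raises this ratio, so this too is partly fixed by the ranking. The highest, near Il10, the gene of an anti-inflammatory cytokine made by Treg cells (chr1:130987841-131006819), was covered over 19.0 kb in WT library 1, 5.01 kb in WT library 2, and 19.0 and 16.0 kb in IkE5. At Prdm1, the gene of the effector Treg factor Blimp-1, the lengths were 11.1 and 3.47 kb in WT and 10.98 and 8.44 kb in IkE5. Ralgps1 had 15.6 and 1.70 kb in WT and 15.6 and 8.09 kb in IkE5. Vmp1, Prkca, 2 domains of Mdfic, Cdk6, Inpp4b and Atxn7l1 complete the 10. In all 10 WT library 2 covered under 50% of the domain and the IkE5 mean was at most 99.4% of WT library 1. A total of 33 domains were covered under 50% in WT library 2 and 0 in library 1. These include domains at Batf, Tigit, Fosl2, Peli1, Celf2 and Lmnb1, and near Icos and Bcl6. Over these 33 the covered share was 99.97% and 36.1% in WT and 92.9% and 64.7% in IkE5. In these bulk samples fewer cells of a kind cannot be told apart from less acetylation per cell.

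**Figure D2:**
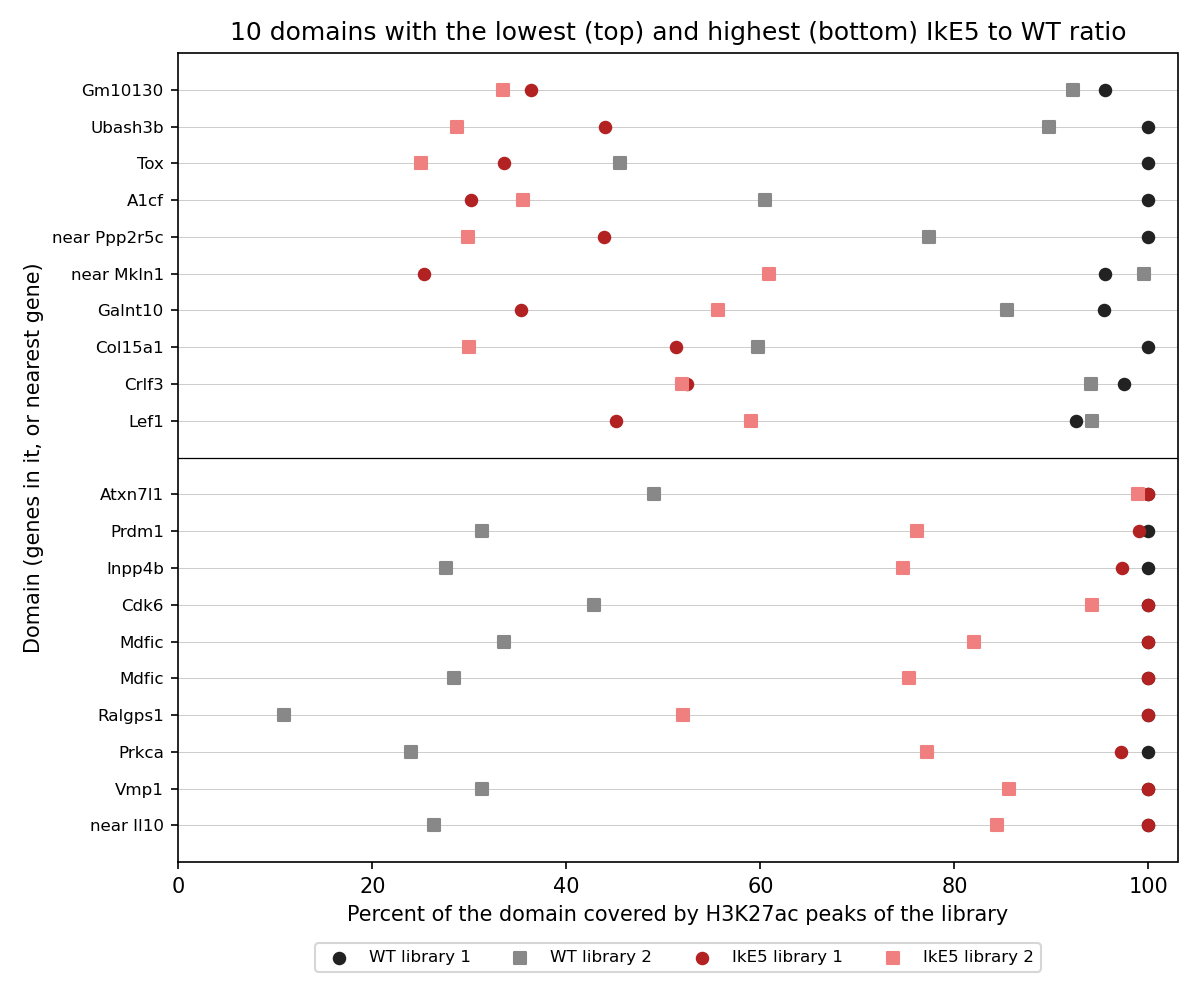
Percent of each domain covered by the peaks of each H3K27ac library, for the 10 domains with the lowest (top) and the 10 with the highest (bottom) ratio of IkE5 to WT covered length; points are single libraries. In the top 10 both IkE5 points lie left of both WT points, and in the bottom 10 WT library 2 lies apart from the other libraries, under 50%. The domains were ranked by these same values, so both patterns are partly fixed by the ranking.

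In a fit with limma over 18110 regions, on log2 of the covered length scaled to the library total plus 1000 bp, 8 domains passed an adjusted p of 0.05 with shorter coverage in IkE5 and 1 with longer coverage. Among all regions 4.2% passed as lower and 0.0773% as higher. WT coverage enters both this test and the choice of the domains, so the calls describe them and are no independent support. The largest differences (log2 IkE5 over WT ± SE, adjusted p from limma) were -1.31 ± 0.27 at Ubash3b (0.000141) and -1.29 ± 0.27 at Gm10130 (0.000124). The domains near Mkln1 (-1.13) and near Ppp2r5c (-1.12), and those at A1cf (-1.07), Tox (-1.04), Galnt10 (-0.92) and Col15a1 (-0.88), also passed. Crlf3 (adjusted p = 0.0559 with limma), Foxp1 (0.0601) and Lef1 (0.0681) missed the threshold. Ralgps1 was the longer one, with a log2 difference of 0.89 (adjusted p = 0.0238 with limma), and WT library 2 set its low WT mean. The median log2 difference was -0.06 over the domains and -0.07 over all regions. Without scaling 0 domains and 0 of all 17987 regions tested passed with limma. At an unadjusted p under 0.05 with limma, 46 of the 460 domains were lower and 0 higher. The share of all regions at that cut was not counted, so nothing is read from it. The calls depended on which library was left out, and a group then holds a single library, so only median log2 differences are given. Over the domains they were -0.28 without WT library 1, 0.11 without WT library 2, 0.02 without IkE5 library 1 and -0.14 without IkE5 library 2. Over all regions they were -0.21, 0.04, 0.02 and -0.14.

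Most domains held sites of the 4 mapped proteins. Taking regions with a peak in both WT lists of a target, NFAT1 lay in 353 domains (76.7%), Ikaros in 318 (69.1%), p300 in 312 (67.8%) and Foxp3 in 257 (55.9%). Among WT H3K27ac regions of 5 to 10 kb the shares were 56.3% for NFAT1, 69.2% for Ikaros, 57.3% for p300 and 53.7% for Foxp3. The Ikaros and Foxp3 shares in domains were thus close to those of the next narrower class. All 4 were present in 181 domains (39.3%) and none in 45. The domain at Dad1 held the most regions, 4 of NFAT1, 4 of p300, 3 of Ikaros and 3 of Foxp3. The Prkch domain held 13 and the Gimap domain 13 regions of the 4 targets together. Domains at Ptpn22 with Bcl2l15, near Spag16, at Agfg1 and at Nr4a1 held 11 each, and among several with 10 was one near Cwc27. Width did not fix this number, since the Ets1 domain of 61.8 kb held 4 NFAT1, 1 p300, 1 Ikaros and 0 Foxp3 regions. At Foxp3 the domain held 1 Foxp3, 1 Ikaros, 2 p300 and 2 NFAT1 regions. The Ctla4 domain held 2 Foxp3, 1 p300 and 3 NFAT1 regions and no Ikaros region of both lists.

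The domains held a small share of the sites of each protein, and the share differed by target. They held 528 of 5301 NFAT1 regions (9.96%) and 413 of 6868 p300 regions (6.01%), but 318 of 10885 Foxp3 (2.92%) and 440 of 16672 Ikaros regions (2.64%). Per 100 kb, domains had 7.42 NFAT1 regions against 7.13 in narrower H3K27ac regions. They had 5.80 p300 against 9.56, 4.47 Foxp3 against 16.0 and 6.18 Ikaros regions against 23.0. The ratio of these densities was 1.04 for NFAT1, 0.607 for p300, 0.279 for Foxp3 and 0.269 for Ikaros. Single WT libraries gave 0.939 and 0.906 for NFAT1, 0.622 and 0.504 for p300, 0.448 and 0.269 for Foxp3, and 0.385 and 0.262 for Ikaros. The ranges of NFAT1 and p300 lay apart from each other and above those of Foxp3 and Ikaros, which overlapped. By width class, Foxp3 and Ikaros were densest in regions of 1 to 2 kb (19.8 and 30.4 per 100 kb), p300 in regions of 2 to 5 kb (11.9) and NFAT1 in regions of 5 to 10 kb (9.34).

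**Figure D3:**
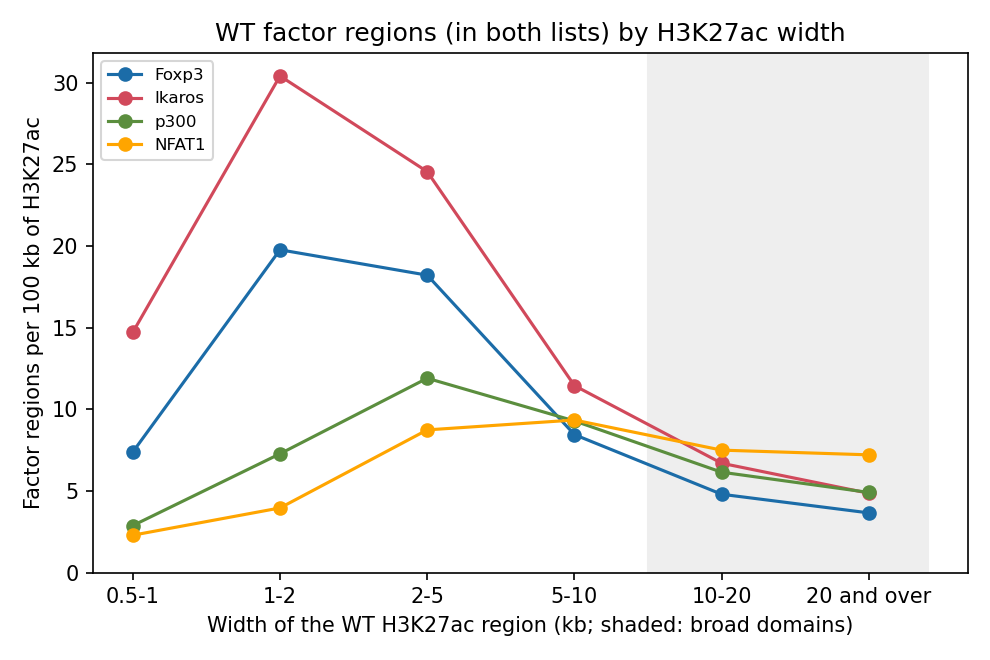
Number of WT regions of Foxp3, Ikaros, p300 and NFAT1 (peak in both lists, placed by their centre) per 100 kb of H3K27ac, by the width class of the WT H3K27ac region in kb; the shaded classes are the broad domains. Foxp3 and Ikaros peak at 1 to 2 kb and are at 3.65 and 4.86 in domains of 20 kb and over, where NFAT1 is at 7.21.

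Few start sites in domains had a factor region. Of the 364 start windows in domains, 8.24% had a Foxp3 region, 13.5% an Ikaros region, 7.42% a p300 region and 11.3% an NFAT1 region, and 296 (81.3%) had none. Of the 10681 start windows in narrower H3K27ac regions, 46.2% had Foxp3, 62.3% Ikaros, 17.5% p300 and 9.47% NFAT1, and 32.4% had none. NFAT1 was the target whose share at starts was not lower in domains than in narrower regions. In the same direction, 11.9% of the Foxp3 and 12.7% of the Ikaros regions in domains lay within 1000 bp of a start site, against 42.4% and 41.0% of those in narrower regions. The Zap70, Tnfaip3, Tigit and Ptpn22 windows printed above thus belong to a minority of starts in domains, and the Lef1 window, with Ikaros, to the 13.5%.

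**Figure D4:**
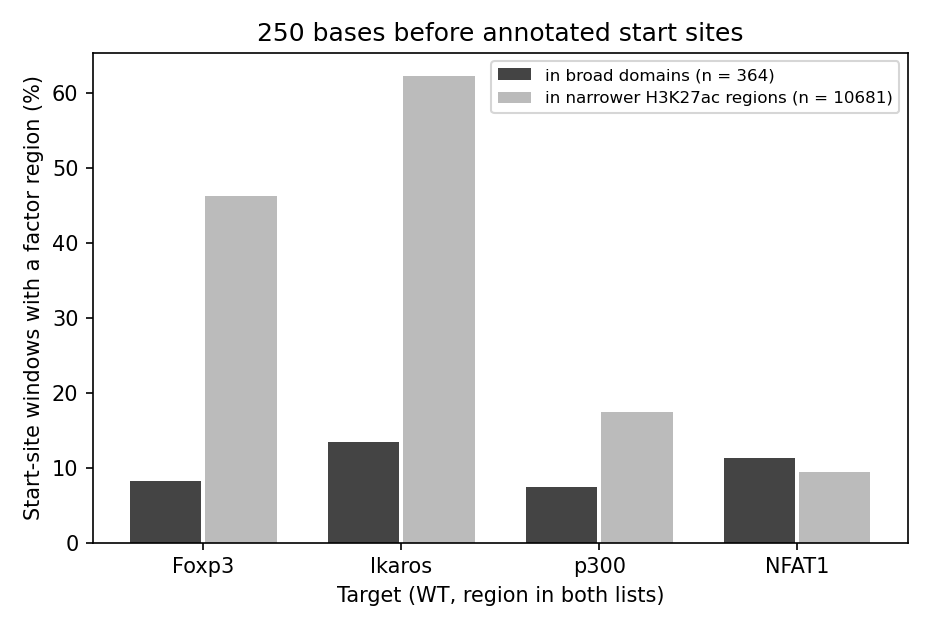
Percent of the 250-base windows before annotated start sites that a WT region of each target touches (peak in both lists), for 364 windows in broad domains (dark) and 10681 in narrower H3K27ac regions (light). The dark bars lie between 7.42% and 13.5%, and the light bars reach 46.2% for Foxp3 and 62.3% for Ikaros.

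Within the domains the 4 targets shared sites. Of the p300 regions in domains 86.0% overlapped an NFAT1 region, against 58.1% in narrower regions, whereas 47.5% overlapped Foxp3, against 70.8%. Foxp3 regions in domains overlapped Ikaros at 81.8% and NFAT1 at 67.9%, against 88.9% and 28.3% in narrower regions. Sites were sparse in the outermost part of a domain. In the first 1 kb from an edge there were 1.74 Foxp3, 2.39 Ikaros, 1.30 p300 and 2.17 NFAT1 regions per 100 kb. From 2 to 3 kb inside there were 6.30, 8.59, 8.37 and 10.0, and beyond 5 kb 3.87, 5.42, 5.66 and 7.58. In the 1 kb just outside the edge at most 2 centres of any target were found.

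Most WT sites in domains had a peak in at least 1 of the 2 IkE5 lists. Of the WT regions in domains, 5.97% of Foxp3 (19 of 318), 6.78% of p300 (28 of 413) and 22.0% of NFAT1 (116 of 528) had no peak in either IkE5 list. In narrower H3K27ac regions these shares were 6.95%, 15.2% and 42.9%. A peak in both IkE5 lists, the rule used for WT sites, was met by 68.2% of Foxp3, 76.8% of p300 and 52.7% of NFAT1 regions in domains. In narrower regions 72.4%, 60.9% and 34.5% met it, so for Foxp3 the share was lower in domains. The IkE5 NFAT1 lists were small, with 4908 and 3435 peaks against 7825 and 6850 in WT, so a missing peak may reflect list size, which was not tested. The share of NFAT1 regions without an IkE5 peak stood at 59.6% in H3K27ac regions of 0.5 to 1 kb, 44.1% at 2 to 5 kb and 20.8% in domains of 20 kb and over. Single IkE5 libraries had a peak at 75.4% and 55.3% of the NFAT1 regions in domains and at 53.5% and 38.2% in narrower regions. For p300 they had one at 81.8% and 88.1%, against 77.2% and 68.5%. In both libraries of both targets the share was higher in domains, whereas for Foxp3 it was higher in library 1 (85.5% against 80.3%) and lower in library 2 (76.7% against 85.1%).

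**Figure D5:**
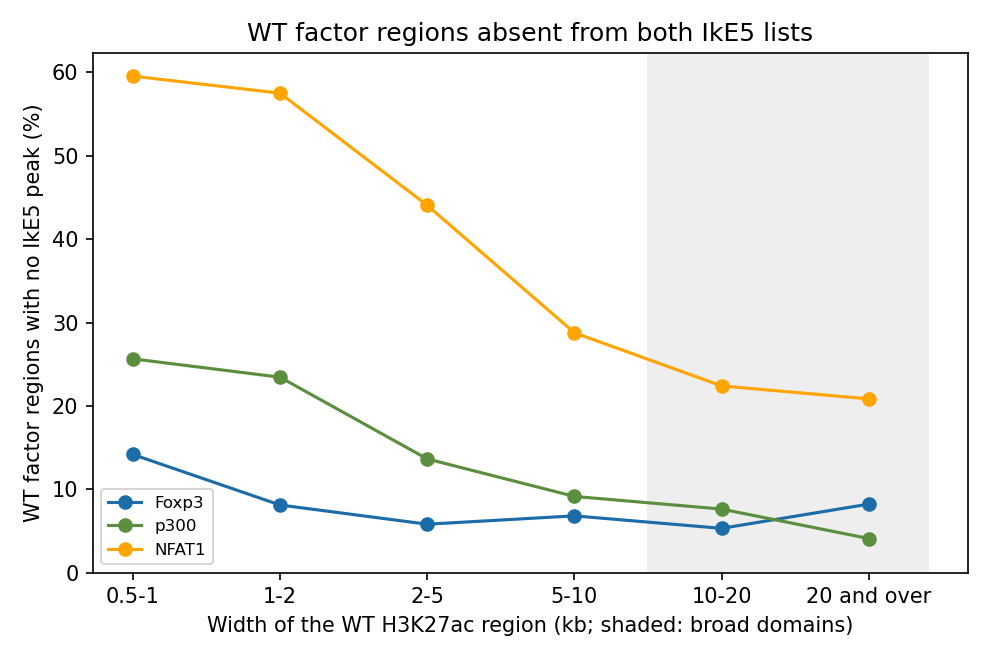
Percent of WT regions of Foxp3, p300 and NFAT1 (peak in both WT lists) with no peak in either IkE5 list, by the width class in kb of the WT H3K27ac region they lie in; the shaded classes are the broad domains. NFAT1 runs from 59.6% to 20.8%, and Foxp3 lies between 5.31% and 14.2%.

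The 46 domains with the lowest H3K27ac ratio were set beside the other domains for the same measure. In them 16 of 45 NFAT1 regions (35.6%) had no IkE5 peak, against 20.7% elsewhere in the domains. For Foxp3 the shares were 10.3% (4 of 39) and 5.38% (15 of 279), and for p300 7.69% (3 of 39) and 6.68% (25 of 374). The Foxp3 direction differed between libraries. IkE5 library 1 had a Foxp3 peak at 71.8% of the regions in the 46 domains against 87.5% elsewhere, and library 2 at 87.2% against 75.3%. At Ubash3b, where over 50% of the H3K27ac length was missing, the Foxp3 region (chr9:41117935-41118480) had a peak in both IkE5 libraries. Of its 2 p300 regions 1 had a peak in both and 1 in library 2 only, and of its 3 NFAT1 regions 2 had a peak in library 1 only and 1 in neither. At Lef1 both Foxp3 regions had a peak in both IkE5 libraries, the p300 region (chr3:131117642-131118153) had none, and the NFAT1 region had one in library 1 only. At the 14.8 kb domain of Bach2 the 2 Foxp3 regions and the p300 region had a peak in both IkE5 libraries, as did 1 of the 2 NFAT1 regions.

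The share of each list's peaks that fell in domains was then compared between genotypes, which does not depend on the width rule except through the domains chosen in WT. For Foxp3 it was 3.83% and 2.49% in WT and 3.54% and 1.95% in IkE5. For p300 it was 5.87% and 4.96% in WT and 4.16% and 6.38% in IkE5. For these targets the genotypes overlapped, with differences of -0.41 and -0.15 percentage points (2-sided exact permutation p = 0.667 and 1). For NFAT1 it was 8.75% and 8.51% in WT (8.63% ± 0.172, SD, n = 2) and 10.9% in each IkE5 library. The groups did not overlap, the difference was 2.29 percentage points, and the 2-sided exact permutation p was 0.333, the smallest that 2 against 2 can give, with an adjusted p of 1 over 3 targets. In number, NFAT1 peaks in domains were fewer in IkE5, with 535 and 376 against 685 and 583. IkE5 cells therefore had fewer NFAT1 peaks in the domains and a larger part of their shorter NFAT1 lists there.

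Regions found in both IkE5 lists and in neither WT list were few within the domains. There were 7 of 271 for Foxp3, 19 of 399 for p300 and 29 of 329 for NFAT1, or 2.58%, 4.76% and 8.81%. In narrower H3K27ac regions the shares were 6.13%, 12.1% and 10.2%, so that of NFAT1 was close in both. For p300 they lay in domains at Ikzf1, Bcl2, Ccr7, Cd83, Tnfsf8 and Il4ra among others. For NFAT1 they lay at Ikzf1, Il2ra, Nr4a1, Tox, Ptprc and Cblb and near Pdcd1 among others. Ikzf1 and Bcl2 are among the names found for both targets. These names were chosen after the regions were seen.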

How the data were processed

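Peak lists of 18 libraries were used, and the 4 input samples are not analysed here. Each deposited list gives mm10 intervals of 1 library, with no score, count or signal, and coordinates are printed 1-based. FastQC, Bowtie2, MACS2, bedtools and HOMER are named per the submitters' processing notes. The peak caller, its threshold and its control are not given in the sources used here. Cells were fixed with 1% formaldehyde for 5 min (histone) or 30 min (factors), per the labels' protocols. A difference in fixation, antibody, depth or calling moves the number and width of peaks.

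Peaks were merged at an overlap of at least 1 bp. Covered length is the part of a region under the peaks of a library. A factor region is a merge with a peak in both lists of a target, and its density uses centres. Gene bodies and start windows of 250 bases came from the RefSeq tables. Covered lengths were fitted in limma 3.58.1 under R 4.3.3 (trended prior, pseudocount of 1000 bp, mean covered length of at least 1000 bp, scaling to the library's total, Benjamini-Hochberg over all regions tested), tested on simulated data. Other steps used Python 3.11.15. Alternatives were minimum width, joining distance, scaling, pseudocount, filter, merging of all 4 lists, a replicate block and leaving out each library. The domains, the 12 gene lists and the tests were chosen with earlier results of these data known. Domains are named by the protein-coding gene body they overlap or else the nearest protein-coding gene. Named are the 15 widest, the 10 lowest and 10 highest ratios, the 8 with the most factor regions, up to 10 limma calls per direction, the 3 nearest the threshold on either side and up to 4 of the widest per list, and others were chosen after their values were seen.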

Additional observations from a re-analysis of the deposited data

How the results depend on the processing

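The number of domains depends on the rule. It was 140 at a minimum width of 15000 bp, 166 when a stretch covered by both WT lists had to reach 10000 bp, 1105 when peaks up to 1000 bp apart were joined, and 201 to 403 in single WT lists. At 15000 bp the domains held 1.09% of Foxp3, 1.02% of Ikaros, 2.46% of p300 and 4.36% of NFAT1 regions, and leaving out a library gave 2.49% to 3.83%, 2.17% to 3.40%, 4.96% to 5.87% and 8.51% to 8.75%. The density ratio ranged over 0.269 to 0.448, 0.262 to 0.385, 0.504 to 0.622 and 0.906 to 0.939 when a library was left out, and was 0.999 for NFAT1 at 15000 bp, so the order relative to 1 for NFAT1 turns with these choices. Shorter coverage was called with limma in 0 domains without scaling (with or without the block) and with regions merged from all 4 lists, and in 0 to 17 when a library was left out. Longer coverage was called in 0 domains without scaling (with or without the block), with a pseudocount of 100 or 5000 bp, without the filter and with all 4 lists merged, and in 0 to 13 when a library was left out. Fewer domains (62) had both IkE5 libraries below after scaling, and 172 to 369 did when a library was left out. Leaving out a library moved the difference in the share of peaks in domains between -1.21 and 0.385 percentage points for Foxp3 and between -1.26 and 0.960 for p300, and the number of NFAT1 peaks fell by 178.5 while their share rose. For WT regions without an IkE5 peak, the difference between domains and narrower regions ranged from -5.19 to 8.32 percentage points for Foxp3, so its direction is unsettled, from -19.7 to -4.60 for p300 and from -24.1 to -17.1 for NFAT1. The leave-one-out values for density, non-overlap and absence from IkE5, and scaling in the non-overlap count, were chosen after seeing the data. Of 175 alternatives for 35 named domains, 159 moved the ratio by less than the spread of libraries and 16 by more. The cause of these changes was not tested.

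Libraries of the same number deviated together across the domains (correlation 0.632), but the labels do not say that a number marks a shared preparation and there are only 2 pairs. With the number as a replicate block, limma called 22 of the 460 domains shorter and 0 longer, beside 1391 and 3 of all 18110 regions tested. Within number 1 IkE5 covered 90.9% of the WT length and within number 2 101%, and the p300 difference was -1.72 percentage points within number 1 and 1.42 within number 2. Without read depth, a short covered length cannot be told apart from a shallow library.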
